A study of Mus musculus with 24 samples.

Results

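The transporters of drugs and organic ions measured here are 57 genes of 2 gene superfamilies, out of 27962 gene names on the array. They are 17 members of the Slc22a family, 15 of the Slco family, 9 of the Abcb family, 10 of the Abcc family and 6 of the Abcg family. Members were chosen by name alone, as every gene whose symbol begins with Slc22a, Slco, Abcb, Abcc or Abcg followed by a number, with Abcb11 left out. They were read by 87 of the 41174 probes. Of the genes, 24 had more than 1 probe. The brightest was then taken, by mean intensity over both channels, and the others are given for only some of the genes where they differ.

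Slc22a and Slco proteins sit in the plasma membrane and mostly carry organic cations, organic anions, carnitine, bile salts, hormones and drugs into the cell. The ABC proteins of the Abcb, Abcc and Abcg families use ATP and mostly move drugs, conjugates, lipids and sterols out of it or across the membranes of organelles. In a hepatocyte, carriers on the blood side take compounds up and pumps on the canalicular side pass them into bile, whereas in the intestinal lining pumps on the luminal side return absorbed compounds to the gut. A few members have other work, such as the sulphonylurea receptors Abcc8 and Abcc9, which are subunits of potassium channels.

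Colon and liver were taken from the same 12 wild-type female C57BL/6 mice at 12 weeks of age. Their mothers had eaten HF-Low, which is rich in fat and short of selenium and folate, from 7 days before mating until the end of lactation, so every mouse was exposed to it before weaning at about 28 days. After weaning 6 mice stayed on HF-Low, which held 0.1 mg of selenium and 0.4 mg of folate per kg (HF-Low-Low). The other 6 were moved to HF-Suf, as rich in fat but with 0.6 mg of selenium and 1.8 mg of folate per kg (HF-Low-Suf). There was no low-fat group and no group raised on the sufficient diet throughout. RNA of the whole colon, with its muscle and fat, or of liver was labelled with Cy3 and hybridised beside a common reference labelled with Cy5, and the dyes were never swapped. The 24 two-colour arrays lay on 6 slides with each of the 4 groups once on a slide, and each of 2 scan days took 3 of the slides. All levels below are log2 ratios of the mouse sample to the reference, so a level says nothing about one gene's abundance against another's, while a difference of 1 between tissues or diets is a 2-fold difference in RNA.

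By the mark the scanner software gives, 26.1% to 71.9% of an array's spots stood well above background in Cy3, and precision is limited by how many arrays there were. The tissue labels held: all 5 hepatocyte markers measured were called higher in liver, and all 6 markers of colon epithelium, all 5 of smooth muscle and all 6 of adipose tissue higher in colon. Of 5 Kupffer cell and macrophage markers 3 were called higher in liver. Livers of HF-Low-Suf replicates 1 and 2 stood apart. In replicate 1 the mean log2 ratio of adipose markers was 2.84, against -1.62 to 0.072 in the other 11 livers, while that of hepatocyte markers, 1.86, lay within their range of 1.53 to 2.21. In replicate 2 that of adipose markers was 0.072, the highest of those 11, and that of skeletal muscle markers -2.53, against -4.77 to -4.075 in the rest. The reference went against its label, a pool of the colon and liver RNA of these female mice: Ddx3y and Eif2s3y, Y-linked genes named after their values were seen, were well above background in Cy5 on all 24 arrays and in Cy3 on 0. The reference is common to all arrays, so its make-up cancels from differences between them. Its median Cy5 signal was 1031 in colon of HF-Low-Suf replicate 5 and 739 in liver of HF-Low-Suf replicate 4, against 300.2 to 431 on the other 22 arrays.

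The mark was given on at least 6 of a tissue's 12 arrays for 41 of the 57 genes. That was so in both tissues for 28 genes. It was so in liver alone for 8, which were Abcc2, Abcc6, Abcg8, Slc22a16, Slco1a1, Slco1a4, Slco1a5 and Slco1b2, and in colon alone for 5, which were Abcb1a, Abcc1, Abcc5, Abcc8 and Slco4a1. Abcc12, Abcg4, Slc22a13, Slc22a14, Slc22a20, Slco1a6 and Slco6c1 were seen on 1 to 5 arrays of a tissue at most. The 9 genes not well above background on any array were Abcb5, Abcc10, Abcg3, the organic cation carrier Slc22a3, the brain thyroid hormone carrier Slco1c1, Slco4c1, Slco5a1 and the testis genes Slco6b1 and Slco6d1. They make up 15.8% of the members, against 23.6% of all probes, and they have no measured level in either tissue.

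Liver and colon differed over a wide range of these genes. At an adjusted P under 0.05 and a fold change over 2, 12 of the 57 genes (21.1%) were higher in liver, where 6.3% of all probes were, and 6 (10.5%) were higher in colon, where 7.62% of all probes were. The 12 values of one tissue lay wholly above those of the other for 16 members. Liver was above colon in 10 of these, against 6.75% of all probes, and colon above liver in 6, against 7.27%. The median difference over the 57 genes was 0.27, and over all probes 0.025. In RNA of whole tissue, fewer cells of a type and less RNA per cell cannot be told apart, and the muscle and fat of the whole colon moved with every tissue difference given here. Their part in it was not tested. Leaving out both arrays of any 1 mouse, those of the livers that stood apart included, gave the same counts of 12 and 6.

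**Figure D1:**
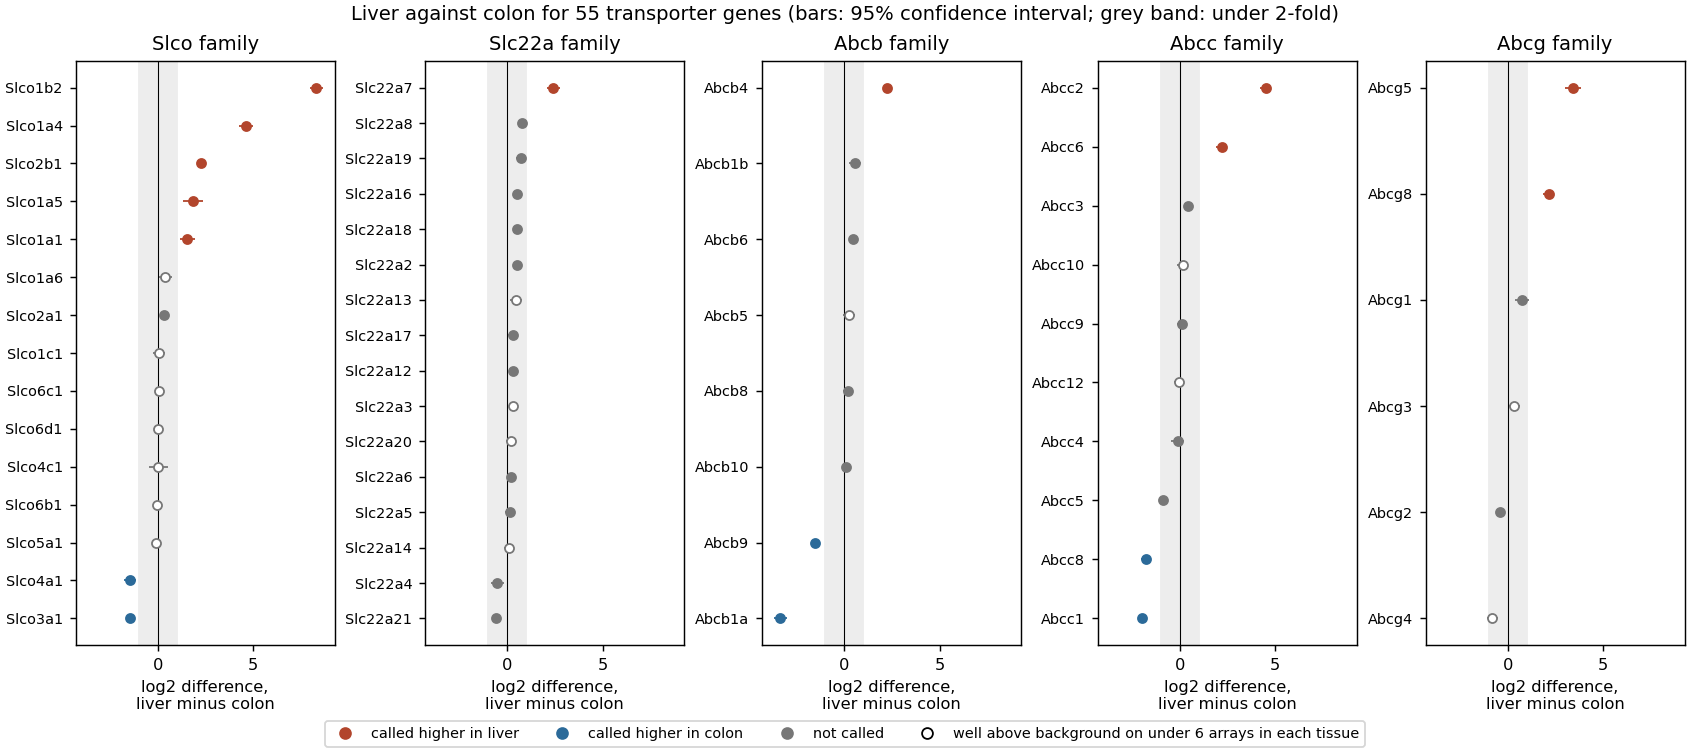
Log2 difference between liver and colon (liver minus colon) of 55 of the 57 transporter genes by family, with 95% confidence intervals from 12 mice. Red points were called higher in liver, blue points higher in colon, grey points were not called, and open points were well above background on fewer than 6 arrays in each tissue. The points run from 8.33 for Slco1b2 to -3.36 for Abcb1a.

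Among the uptake carriers of the blood side of the hepatocyte, the Slco family held the widest difference of the 57 genes. Slco1b2, which takes bile salts and many drugs into hepatocytes, had log2 ratios of -6.78 to -5.79 in colon, with a median of -6.45, and of 1.03 to 2.67 in liver, with a median of 2.16. Liver was far above colon in all 12 mice, by 8.33 on the log2 scale (SE 0.17, limma adjusted P = 1.02e-24, exact sign-flip P = 0.000488, the smallest that 12 mice allow). Its probe was well above background on only 2 of 12 colon arrays, so the colon level, and with it the 322-fold size of the difference, rests on dim spots. The lowest of the 12 liver values, 1.03, was that of HF-Low-Suf replicate 1.

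The other Slco carriers higher in liver were Slco1a4, Slco2b1, Slco1a5 and Slco1a1. Slco1a4, which carries digoxin and other neutral and anionic compounds, lay between -1.20 and 0.066 in colon (median -0.56) and between 2.93 and 5.12 in liver (median 4.19). The tissues did not overlap, and liver was higher by 4.63 (SE 0.17, limma adjusted P = 1.89e-18), with the probe well above background on 2 of 12 colon arrays. Slco2b1, a carrier of steroid sulphates with a wide tissue distribution, lay between -0.59 and 0.58 in colon (median -0.00060) and between 1.83 and 2.58 in liver (median 2.14). The probe passed background on every array, and liver was 4.88-fold higher (log2 2.29, SE 0.12, limma adjusted P = 2.51e-15).

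Slco1a1 and Slco1a5, which are named after their values were seen, varied more between livers. Slco1a1 lay between -4.89 and -3.86 in colon and between -3.93 and -2.15 in liver, so the tissues just overlapped. It was dim on all 12 colon arrays and well above background on 7 of 12 liver arrays. By a bound, liver was at least 2.75-fold higher (fitted log2 1.55, SE 0.18, limma adjusted P = 4.21e-08). Such a bound sets the bright tissue's mean against the dimmest signal that still passed as well above background on each array of the dim tissue, or the probe's own where that was higher. It has no error term, so "at least", here and below, allows for dim spots but not for spread between mice or for processing. With median centring in place of loess the log2 difference of Slco1a1 was 1.12, which is smaller than its bound. Slco1a5 lay between -1.91 and 0.14 in colon and between -1.07 and 2.20 in liver, with the lowest liver value again in HF-Low-Suf replicate 1. Its difference was 1.82 (SE 0.26, limma adjusted P = 9.63e-07, higher in 11 of 12 mice) with that mouse and 2.05 without it. The probe passed background on 1 of 12 colon arrays and on 9 of 12 liver arrays, so the size rests on dim colon spots, and it was 3.14 with the signals as processed by the scanner software, Feature Extraction. Its second probe passed on 1 colon array and on 0 liver arrays, which allows no difference to be given.

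Slc22a carriers were among the genes called between tissues. Slc22a7, an organic anion transporter of the hepatocyte, lay between -4.15 and -3.17 in colon (median -3.70) and between -2.24 and 0.015 in liver (median -1.39). The tissues did not overlap, and the probe was well above background on all 24 arrays. Liver was 5.29-fold higher (log2 2.40, SE 0.16, limma adjusted P = 1.20e-12), in 12 of 12 mice.

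Abcc2 and Abcb4, pumps of the bile canaliculus, were also higher in liver. Abcc2, which exports bilirubin glucuronides and other conjugates, lay between -3.68 and -1.65 in colon (median -2.87) and between 1.34 and 2.03 in liver (median 1.74). The 12 livers kept within a narrow band, and liver was higher by 4.49 (SE 0.13, limma adjusted P = 9.24e-21) with the probe well above background on 2 of 12 colon arrays. Abcb4, which moves phosphatidylcholine into bile, lay between -0.96 and 0.38 in colon (median -0.23) and between 1.74 and 2.31 in liver (median 1.95). The difference was 4.81-fold toward liver, with all arrays above background (log2 2.27, SE 0.11, limma adjusted P = 1.12e-15). By its second probe, dim on all 12 colon arrays, liver was at least 10.8-fold higher. Abcc6, a hepatocyte protein needed for the release of ATP, lay between -0.78 and 0.22 in colon and between 1.0 and 2.33 in liver, a difference of 2.19 (SE 0.14, limma adjusted P = 1.55e-13). The probe passed background on 1 of 12 colon arrays and on 11 of 12 liver arrays, so the size rests on dim colon spots. With median centring it was 1.52, and with the processed signals of Feature Extraction 3.43.

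Abcg5 and Abcg8 together form 1 sterol pump, and their genes lie head to head on chromosome 17. Abcg5 lay between -3.41 and -0.87 in colon (median -1.92) and between 1.0 and 2.40 in liver (median 1.33). All 24 arrays were above background, and Abcg5 was 10.6-fold higher in liver (log2 3.41, SE 0.21, limma adjusted P = 8.74e-14, 12 of 12 mice). Abcg8 lay between -1.66 and -0.068 in colon (median -0.86) and between 0.94 and 2.19 in liver (median 1.19). It was dim on all 12 colon arrays, and liver was at least 2.86-fold higher (fitted log2 2.14, SE 0.14, limma adjusted P = 2.10e-13, and 3.72 with the processed signals). By its second probe, also dim on all 12 colon arrays, liver was at least 1.55-fold higher. The highest of the 12 liver values of each gene, 2.40 for Abcg5 and 2.19 for Abcg8, was that of HF-Low-Low replicate 2.

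The start of Abcg5 is shown because the 2 genes that moved together share it. The window from 250 bases before to 50 bases after the start, at chr17:84682962-84683261 of GRCm38.p6 on the minus strand (RefSeq), shares 209 bases with the same window of Abcg8. The shared bases are in capitals.
Abcg5: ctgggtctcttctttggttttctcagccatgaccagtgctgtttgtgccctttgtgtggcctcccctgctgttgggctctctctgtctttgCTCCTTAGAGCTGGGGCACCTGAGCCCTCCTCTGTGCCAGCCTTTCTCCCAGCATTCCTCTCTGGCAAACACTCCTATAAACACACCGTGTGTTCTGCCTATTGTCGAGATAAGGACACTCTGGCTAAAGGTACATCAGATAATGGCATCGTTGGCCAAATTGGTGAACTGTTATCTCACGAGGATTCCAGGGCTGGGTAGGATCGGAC
The window of Slco1b2, at chr6:141629268-141629567 on the plus strand of the same build, is shown because that gene had the widest difference. Capitals mark GTTAAT, one arm of the palindromic site of the hepatocyte factor HNF1.
Slco1b2: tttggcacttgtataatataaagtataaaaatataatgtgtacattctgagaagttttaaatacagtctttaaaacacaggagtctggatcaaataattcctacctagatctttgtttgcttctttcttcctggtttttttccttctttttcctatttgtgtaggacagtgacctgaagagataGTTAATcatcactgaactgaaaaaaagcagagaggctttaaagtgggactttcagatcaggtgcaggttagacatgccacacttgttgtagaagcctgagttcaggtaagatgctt
On either strand GTTAAT was found in the windows of 3 of the 44 members matched by symbol in the RefSeq promoter table, Slc22a6, Slc22a8 and Slco1b2, and in 8.24% of all 27025 gene symbols there. The full HNF1 site, which holds GTTAAT, was in 0 members' windows and in 0.0111% of all. A match to these letters is not a measured binding site.

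The 6 genes higher in colon were 4 ABC proteins and 2 Slco carriers. Abcb1a, a multidrug pump (P-glycoprotein) of the luminal membrane of the gut, lay between 2.08 and 3.17 in colon (median 2.63) and between -1.77 and 0.0025 in liver (median -0.61). The probe passed background on 12 of 12 colon arrays and on 0 of 12 liver arrays, and colon was at least 7.86-fold higher (fitted liver minus colon -3.36, SE 0.17, limma adjusted P = 9.61e-16, lower in liver in 12 of 12 mice). Abcc1, a pump of glutathione conjugates found in many cell types, lay between 0.061 and 0.54 in colon (median 0.34) and between -2.58 and -1.06 in liver (median -1.61). On 5 of 12 liver arrays it passed background, with a difference of -1.98 (SE 0.12, limma adjusted P = 5.21e-14), and another probe gave -1.29. By its dimmest probe, not well above background on any of 12 liver arrays, colon was at least 2.38-fold higher.

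Abcb9, a peptide transporter of lysosomes, lay between 0.40 and 0.87 in colon (median 0.52) and between -1.35 and -0.49 in liver (median -0.91). It was well above background on all 24 arrays and 2.89-fold higher in colon (liver minus colon -1.53, SE 0.093, limma adjusted P = 8.46e-14). Abcc8, the sulphonylurea receptor of insulin-secreting cells, lay between 0.79 and 1.68 in colon (median 1.42) and between -0.83 and 0.087 in liver (median -0.55), with 1 of 12 liver arrays well above background. The tissues did not overlap on this probe (-1.81, SE 0.11, limma adjusted P = 6.41e-14), but the second probe was dim on all 24 arrays and gave no measured level in either. With the processed signals the first probe gave -3.23.

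Slco3a1, which carries prostaglandins and thyroid hormone, lay between -1.85 and -1.05 in colon (median -1.54) and between -3.46 and -2.48 in liver (median -3.01). The tissues did not overlap, with a difference of -1.46 (SE 0.10, limma adjusted P = 1.25e-12). Slco4a1, a thyroid hormone carrier of many epithelia, lay between -0.74 and 0.59 in colon (median 0.19) and between -2.02 and -0.61 in liver (median -1.21). The tissues overlapped only through the lowest colon array, HF-Low-Low replicate 1. Slco4a1 was dim on all 12 liver arrays, and by the bound colon was at least 2.41-fold higher. The fitted liver minus colon difference was -1.45 (SE 0.15, limma adjusted P = 3.77e-09, lower in liver in 12 of 12 mice). On the first scan day it was -1.06, a smaller difference than the bound.

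**Figure D2:**
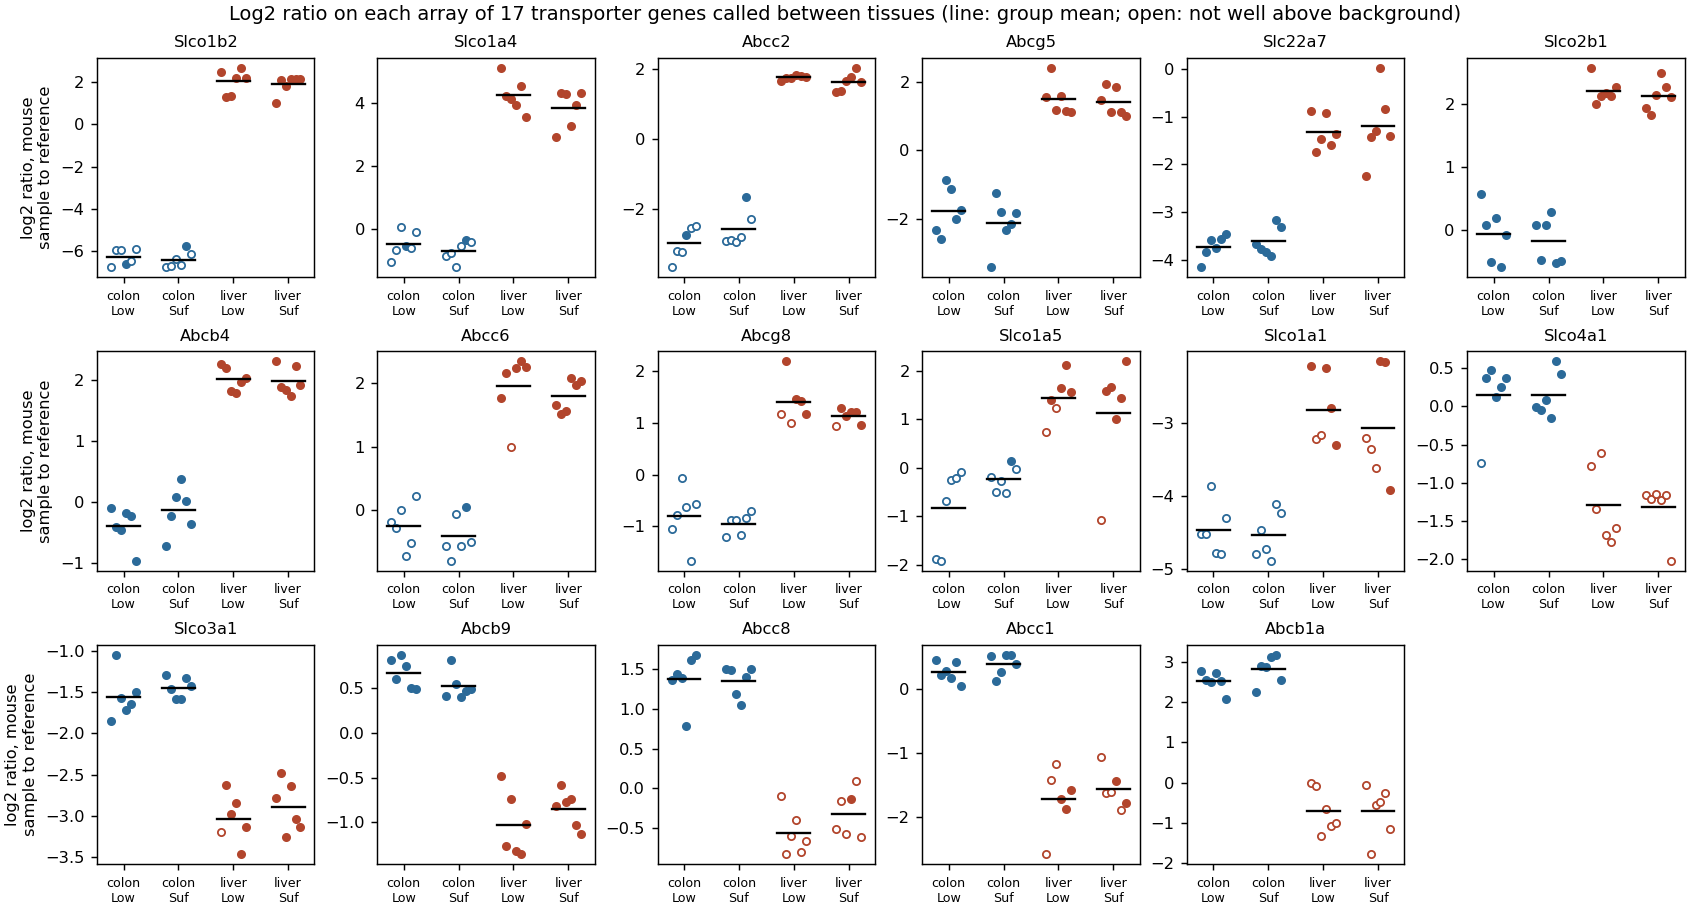
Log2 ratio of mouse sample to reference on each of the 24 arrays for 17 of the 18 transporter genes called between tissues, by tissue and diet (Low is HF-Low-Low, Suf is HF-Low-Suf, 6 arrays each), with a line at each group's mean and open points where the spot was not well above background. Vertical scales differ between genes. Colon and liver overlap for Slco1a5, Slco1a1 and Slco4a1 and for no other gene shown, and the 2 diets overlap within every tissue.

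Genes that are neighbours on a chromosome went different ways. On chromosome 5 the probes of Abcb1a, Abcb1b and Abcb4 lie in this order, at chr5:8785623-8785682, chr5:8899085-8899144 and chr5:8996752-8996811 of mm7. Abcb1a was higher in colon, Abcb4 was higher in liver, and Abcb1b, the second P-glycoprotein gene of the mouse, was not called. On chromosome 6 Slco1b2, Slco1a4, Slco1a1 and Slco1a5 were higher in liver, while their neighbour Slco1c1 was dim on every array and Slco1a6 was well above background on 1 colon array and on 0 liver arrays. The probes of such relatives share little sequence: at most 11 consecutive bases among the brightest probes of the Slco1 genes, and at most 8 among all probes of Abcb1a, Abcb1b and Abcb4.

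The call for Abcb1b depended on the probe, and its 2 brighter probes are shown because they read the gene differently. The brightest lies at chr5:8899085-8899144 (mm7, plus strand) and the second-brightest at chr5:8903569-8903628.
Abcb1b brightest probe: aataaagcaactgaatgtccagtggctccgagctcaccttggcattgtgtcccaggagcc
Abcb1b second probe, bases 1 to 30: tccaggctggagcaaagcgctcatgagctg
On the brightest probe Abcb1b lay between 0.13 and 2.13 in colon and between 1.08 and 2.32 in liver, 0.57 higher in liver (SE 0.16, limma adjusted P = 0.00507) and under 2-fold. On the second-brightest, which lies further 3′, it lay between 0.74 and 1.87 in colon and between -1.79 and 1.04 in liver, 2.60 lower in liver by the fit (liver minus colon -2.60, SE 0.21, limma adjusted P = 2.63e-11). That probe passed background on 12 of 12 colon arrays and on 3 of 12 liver arrays, so the size rests mostly on dim liver spots. The 1 liver that reached 1.04 on this probe was HF-Low-Suf replicate 1, the liver with high adipose markers, and the other 11 lay at or below -0.95. On another probe, above background on 1 of 12 arrays in each tissue, the difference was 0.082 (limma adjusted P = 0.739). No direction between tissues can be given for Abcb1b from these arrays.

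**Figure D3:**
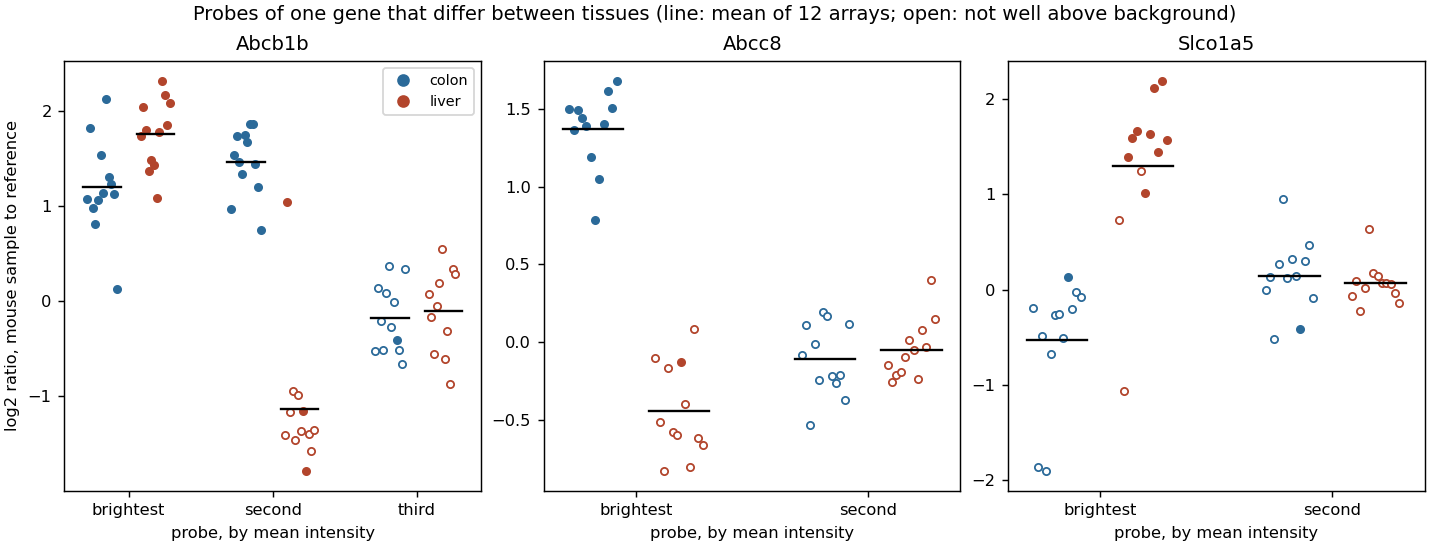
Log2 ratio of mouse sample to reference on 12 colon (blue) and 12 liver (red) arrays for each probe of Abcb1b, Abcc8 and Slco1a5, ordered by mean intensity, with a line at each mean and open points not well above background. Colon is above liver on the second probe of Abcb1b (-2.60) and not on the first (0.57), and the second probes of Abcc8 and Slco1a5 are dim on nearly all arrays.

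The carnitine and ergothioneine branch of the Slc22a family is Slc22a4, Slc22a5, Slc22a21 and Slc22a16, and the first 3 lie side by side on chromosome 11. Slc22a4, the ergothioneine carrier, lay between -1.44 and -0.29 in colon (median -0.84) and between -2.10 and -0.83 in liver (median -1.30). Its probe passed background on 12 of 12 colon arrays and on 8 of 12 liver arrays. Most mice had less in liver, and 2 of 12 had more. The difference was -0.53 (SE 0.16, limma adjusted P = 0.00873, exact sign-flip P = 0.0151), which is 1.45-fold and under the limit of 2-fold. It was -0.91 with median centring in place of loess and -0.82 with the processed signals of Feature Extraction. With the background model fitted on all spots it was -0.33 (SE 0.17), and limma no longer put it past an unadjusted limit of 0.05. Slc22a4 was also lower on the second scan day in both tissues, with medians of -0.56 and -1.10 in colon and of -1.10 and -1.85 in liver on the first and the second day.

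Slc22a5, the main carnitine carrier of the plasma membrane, lay between -1.41 and -0.85 in colon and between -1.69 and -0.20 in liver. The tissues overlapped fully (0.13, SE 0.12, limma adjusted P = 0.453, 95% interval -0.12 to 0.38). Leaving out each mouse gave 0.055 (without HF-Low-Low replicate 3) to 0.21 (without HF-Low-Low replicate 4), and 0.087 without HF-Low-Suf replicate 3. Slc22a16, a carnitine carrier best known from testis, was higher in liver by 0.52 (SE 0.11, limma adjusted P = 0.000193, 11 mice with a value in both tissues). Its probe passed background on 5 of 12 colon arrays and on 8 of 12 liver arrays, and with median centring the difference was 0.19. Slc22a21, a carnitine carrier of peroxisomes, was lower in liver by the fit (-0.59, SE 0.099, limma adjusted P = 1.53e-05) in all 12 mice, which is 1.5-fold. Its value is uncertain, because its probe is close to the second Slc22a5 probe. Those were the 2 of the 87 members' probes that shared 20 or more consecutive bases with a probe of another gene. Of their 60 bases they share one run of 21 and another of 33, and 30 bases of each are shown, with the start of the longer run in capitals.
Slc22a5 second probe, bases 7 to 36: tgggccttccaaagaaatgaaTGAGTCTCT
Slc22a21 probe, bases 4 to 33: tgggccttccaaagaaatgaatTGAGTCTC
The second Slc22a5 probe differed between tissues by -0.17 (SE 0.096, limma adjusted P = 0.188). Among 6 genes of carnitine use, 3 were called higher in liver and 0 in colon. They were Bbox1, the last enzyme of carnitine synthesis (5.78), Crot, the peroxisomal carnitine octanoyltransferase (3.42), and Cpt2 (1.26). Cpt1a, Slc25a20 and Crat were not called, at 0.64, 0.68 and 0.55.

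Of the 39 genes not called between tissues, 20 passed an adjusted P of 0.05 at under 2-fold, 15 of them higher in liver and 5 higher in colon, and 19 did not pass. Without a minimum fold the counts were therefore 27 and 11, where 40.1% of all probes passed in either direction. The kidney-type anion carrier Slc22a8 differed by 0.78 (SE 0.11, limma adjusted P = 4.92e-07), and the cholesterol exporter Abcg1 by 0.76 (SE 0.18, limma adjusted P = 0.00121). The other Slc22a8 probes were dim on every array. The mitochondrial and haem-linked transporters Abcb6, Abcb8 and Abcb10 differed by 0.43, 0.19 and 0.084. Abcc3, the basolateral conjugate pump, was at 0.42 and Abcc4, which also exports cyclic nucleotides, at -0.13. Abcc5, another pump of cyclic nucleotides, missed the limit narrowly: colon was above liver in every array, by 1.84-fold (-0.88, SE 0.11, limma adjusted P = 6.62e-08). It passed 2-fold with median centring, with the processed signals and on the second scan day. Its other probes were dim on every liver array. Abcg2, the breast cancer resistance protein, was lower in liver in all 12 mice by the fit (-0.42, SE 0.11, limma adjusted P = 0.0016).

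None of the other members was called. Slc22a6, Slc22a2, Slc22a12 and Slc22a19, carriers of organic anions, cations and urate best known from kidney, differed by 0.20, 0.51, 0.28 and 0.70. Slc22a17, the lipocalin receptor, and Slc22a18 differed by 0.30 and 0.51, the prostaglandin carrier Slco2a1 by 0.32, and Abcc9, a subunit of potassium channels in muscle, by 0.11. The second Slc22a17 probe was lower in liver by its group means, but it passed background on 2 HF-Low-Suf colon arrays and on no other. Slc22a13, a carrier of nicotinate and urate, Abcc12, Slc22a14 and Slc22a20 passed background on 1 or 2 of 12 arrays in each tissue. Abcg4, Slco1a6 and Slco6c1 were dim on all 12 liver arrays and seen on 1 to 3 colon arrays. For these 7 genes no difference between tissues is given.

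Genes linked to these transporters also differed between the tissues. Of 14 nuclear receptors and other factors that control transporter genes, 7 were called higher in liver and 2 higher in colon. The receptors Nr1i3 (CAR), Nr1h3 (LXR alpha), Nr0b2 (SHP) and Rxra were higher in liver by 3.05, 2.36, 2.41 and 1.07, and Foxa2, Ahr and Cebpa by 2.22, 2.16 and 1.76. The intestinal factor Cdx2 and the oxidant-response factor Nfe2l2 were higher in colon, at -5.99 and -1.14. Nr1i2 (PXR), Nr1h4 (FXR), Nr1h2, Ppara and Hnf4a were not called, at 0.28, 0.32, -0.31, 0.98 and 0.44.

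Of 13 other carriers of bile acids, peptides, nucleosides and anions, 4 were called higher in liver and 3 higher in colon. Slc10a1, the bile salt carrier of the hepatocyte's blood side, differed by 5.60, and Slc17a3, Slc29a1 and Slc17a1 by 3.36, 2.14 and 1.8. Slc10a2, the bile acid carrier of the gut lumen, was higher in colon at -3.45, as were the sulphate carrier Slc13a1 at -3.71 and the dicarboxylate carrier Slc13a2 at -2.44. Of 5 scaffold and cytochrome P450 genes, 4 were higher in liver, Cyp3a11 by 6.01, Cyp2b10 by 3.53, the scaffold Pdzk1 by 2.58 and Por by 1.20, and Slc9a3r1 was not called at -0.20.

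Against the reference, some members were low. The mean ratio over all 24 arrays was under 0.3 for 8 genes, Slc22a13, Slc22a19, Slc22a2, Slc22a6, Slc22a7, Slco1a1, Slco1a6 and Slco3a1, at 0.0487 to 0.264. In Slc22a7 and Slco3a1 the tissue where the gene was higher was less low, with mean log2 ratios of -1.26 in liver and -1.50 in colon. All 8 were well above background in the reference channel on 24 of 24 arrays. Of the 5 kidney markers, 4 had mean ratios of 0.034 to 0.083 and Cubn, which was called higher in colon, 0.27. The 6 skeletal muscle markers had ratios of 0.031 to 0.097. Ratios over 2 were found for 10 members, from 2.04 for Abcb6 to 9.27 for Slco1a4. The make-up of the reference was not tested.

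**Figure D4:**
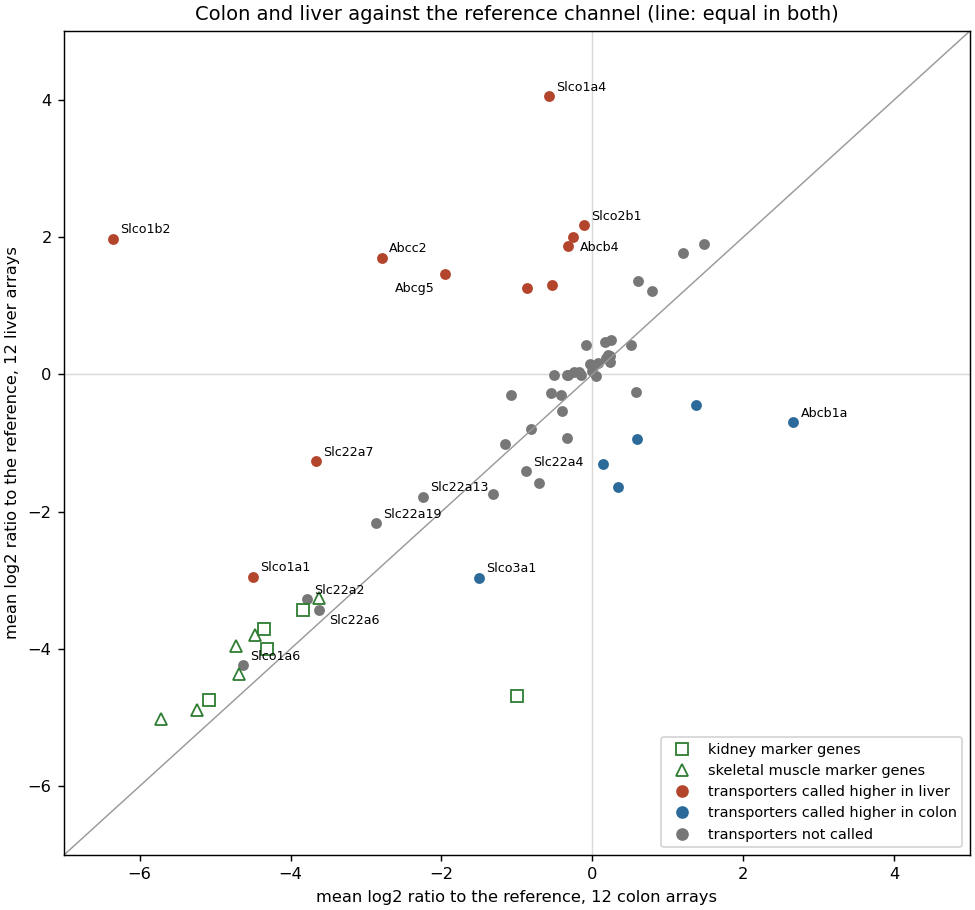
Mean log2 ratio to the reference in 12 liver arrays against that in 12 colon arrays, for 55 of the 57 transporter genes (circles, coloured by the call between tissues), 5 kidney markers (squares) and 6 skeletal muscle markers (triangles). On the diagonal line the tissues are equal. Slc22a6, Slc22a2 and Slco1a6 lie near the diagonal at the low end, at -3.28 or below in both tissues, beside most kidney and muscle markers.

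Diet was compared within each tissue, HF-Low-Suf minus HF-Low-Low, to ask whether sufficient selenium and folate after weaning changed the carriers. The sign follows the dye labels. The study defines its diet changes the same way round, but its listed genes have the opposite sign here, and which direction is right was not settled. At the study's limits of an unadjusted P under 0.01 and a fold change over 1.5, 0 of the 57 genes were called in colon, where 0.175% of all probes were, and 0 in liver, where 0.0631% were. Below an unadjusted limma P of 0.05 were 0 members in colon and 1 in liver, against 3.07% and 2.25% of all probes, and no probe of the array passed adjustment in either tissue. The 1 gene was Slc22a13 (0.47, SE 0.21, P = 0.0447, exact permutation P = 0.0736), which was well above background on 1 of 12 liver arrays.

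The intervals bound what a diet difference could have been. Of the 33 members that passed background on 6 or more colon arrays, 32 had a 95% interval within 2-fold in either direction and 26 within 1.5-fold. In liver it was 34 and 22 of 36. Fitted differences of these members ran from -0.35 to 0.33 in colon and from -0.41 to 0.48 in liver. They were above 0 in 18 of 33 and below in 15, and in liver above in 15 of 36 and below in 21, counts that change places if the sign is turned.

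Slc22a4 lay between -1.44 and -0.29 in HF-Low-Low colon (median -0.56) and between -1.36 and -0.45 in HF-Low-Suf colon (median -0.99). In liver it lay between -2.10 and -0.83 in HF-Low-Low (median -1.66) and between -1.86 and -0.85 in HF-Low-Suf (median -1.12). The diets overlapped over most of their range in both tissues. The difference was -0.21 in colon (SE 0.23, 95% interval -0.69 to 0.26, P = 0.358, exact permutation P = 0.4) and 0.24 in liver (SE 0.24, 95% interval -0.28 to 0.76, P = 0.340, exact permutation P = 0.4). Within the first and the second scan day it was -0.46 and 0.036 in colon and 0.056 and 0.42 in liver. Between liver and colon the diet difference of Slc22a4 differed by 0.45, which limma's test of the interaction did not call (adjusted P = 0.848). Without the 2 livers that stood apart, the liver difference was 0.12 (SE 0.28) and diet again called 0 members.

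Among members that passed background on 6 or more arrays of the tissue, those with the smallest P for diet in colon were the pumps Abcb1a, Abcb4 and Abcb1b and the prostaglandin carrier Slco2a1. Abcb1a lay between 2.08 and 2.76 in HF-Low-Low and between 2.25 and 3.17 in HF-Low-Suf, a difference of 0.29 (SE 0.17, P = 0.118, exact permutation P = 0.132). It was 0.032 without the 3 mice of the arrays with bright background. Slco2a1 differed by -0.19 (P = 0.196, exact permutation P = 0.152), Abcb4 by 0.25 (P = 0.208, exact permutation P = 0.251) and Abcb1b by 0.33 (P = 0.208, exact permutation P = 0.284). In liver, by the same rule, they were Abcc4, Abcg8, Slco1a4 and Slc22a8. Abcc4 lay between -1.36 and -0.13 in HF-Low-Low and between -0.75 and 0.40 in HF-Low-Suf, a difference of 0.48 (SE 0.24, P = 0.0696, exact permutation P = 0.110). It was 0.77 with the processed signals, and 0.17 on the second probe, which passed background on 1 liver array. Abcg8 differed by -0.28 (P = 0.147, exact permutation P = 0.147), Slco1a4 by -0.41 (P = 0.173, exact permutation P = 0.227) and Slc22a8 by 0.23 (P = 0.193, exact permutation P = 0.190). The diets overlapped for all 8. In colon the difference of Slco2a1 was -0.11 without HF-Low-Low replicate 4, and without HF-Low-Low replicate 6 that of Abcb4 was 0.14 and that of Abcb1b 0.15. With median centring that of Slco2a1 was -0.037. Without HF-Low-Suf replicate 1 the liver difference of Slco1a4 was -0.23, and without HF-Low-Low replicate 2 that of Abcg8 was -0.12.

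**Figure D5:**
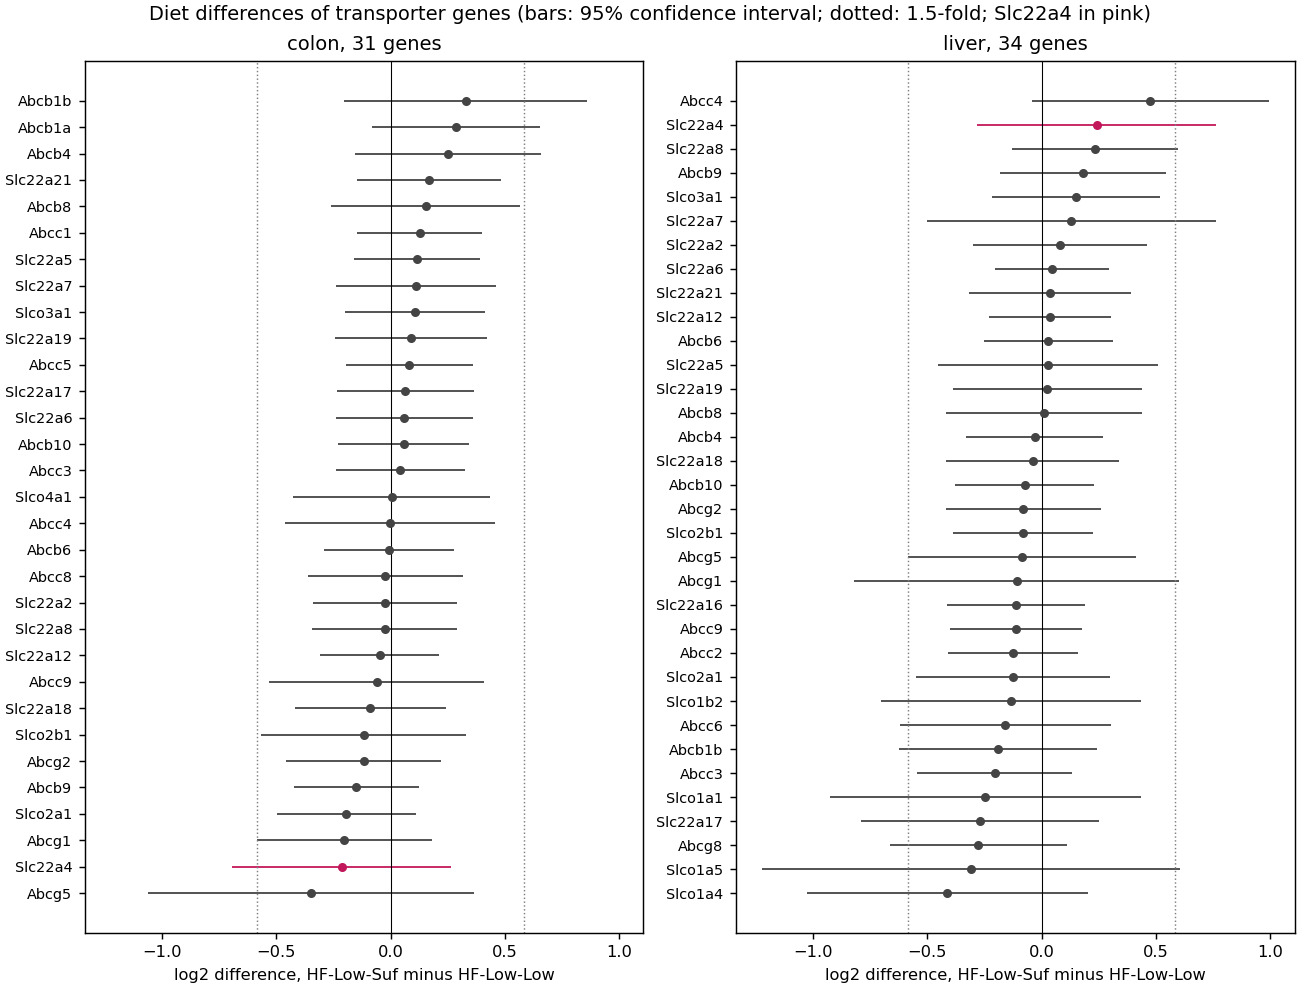
Log2 difference between diets (HF-Low-Suf minus HF-Low-Low) with 95% confidence intervals for the transporter genes that passed background on 6 or more arrays of the tissue, 31 of 33 in colon and 34 of 36 in liver, with 6 mice per diet. Dotted lines mark 1.5-fold, and Slc22a4 is in pink. Every interval includes 0.

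The difference between the diet effects of liver and colon was called for 0 members, and for 0 probes, at a limma adjusted P under 0.05. At an unadjusted limma P under 0.05 it was again 0 members, against 6.85% of all probes. Diet called 0 genes in either tissue in the lists of transporter regulators, other carriers, carnitine use and scaffold or P450 genes.

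Values of mice on one diet spread more for some carriers than for others. With 1 array per mouse and tissue, differences between mice and array noise cannot be told apart. The median within-diet SD of the detected members was 0.25 in colon, where all detected probes had 0.28, and 0.31 in liver, where they had 0.28. In colon Abcg5 had the highest of the 33 values, at 0.70. In liver Slco1a5, Abcg1 and Slco1a1 had the highest of 36, at 0.87, 0.67 and 0.63. Slco1a1 passed background on 7 of 12 liver arrays, so its value rests partly on dim spots. The value of Slco1a5 rests on HF-Low-Suf replicate 1, where its spot was dim: the SD was 1.15 in HF-Low-Suf and 0.46 in HF-Low-Low. HF-Low-Suf replicate 1 was the lowest of the 12 livers for 6 of the 12 genes higher in liver, and every other liver for at most 2. Among these were Slco1b2 at 1.03, Slco1a4 at 2.93, Slco1a5 at -1.07 and Slc22a7 at -2.24. What part its high adipose markers had in this was not tested.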

How the data were processed

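RNA of colon and liver of 12 mice was hybridised to 24 Agilent arrays of 2 colours. The authors deposited 1 file per array, and the intensity values used are the mean signal and the median local background of each of 45018 spots in Cy3 and Cy5, not normalized. The authors' processed intensity, background subtracted and dye normalized by Feature Extraction, served as an alternative. Samples were grouped by the tissue and diet in the labels. The members, lists, named genes and tests were chosen with earlier results of these data known.

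The background model failed on 3 liver arrays: with all spots, its fitted mean was -662 to -194, and without the 31 spots whose background was over 200 units above their signal (4 arrays, at most 14 each) it was 28.4 to 55.9. These spots were left out, a choice made after seeing the data. Background correction was by normexp with an offset of 50, followed by loess on each array, in limma 3.58.1 on R 4.3.3. The 1639 control spots and outlier spots were dropped and repeated spots averaged, giving 41174 probes. The log2 ratio is Cy3 over Cy5.

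Tissues were compared by limma over 24 arrays with the mouse as random block (correlation 0.145), Benjamini-Hochberg over all probes. Each diet test used 12 arrays, at the study's limits. Exact tests, two-sided, flipped signs over 12 mice (4096 ways, smallest P = 0.000488) or permuted 12 mice (924 ways, smallest P = 0.00216). The diet P-values measure the spread between 6 mice per diet, which includes array noise, as each mouse gave 1 array per tissue. The sign-flip P-values measure that of the liver minus colon differences of 12 mice. Probe positions are mm7 and promoters GRCm38.p6. The symbols of 47 members were found by accession in the RefSeq table, all unchanged. The tests were tested on simulated data. Named with values were Slc22a4 and its branch, in each family the 3 called members with the largest difference each way among those detected on 6 or more arrays of the higher tissue, and for diet the 4 detected members with the smallest P in each tissue. Slco1a1, Slco1a5, Abcb1b between tissues and Slc22a13 were named after their values were seen, and other members are given once by their fitted difference. Of the 57 genes, 2 enter the counts but are not reported here. Replicate numbers are slides. Same-numbered arrays of the 2 diets did not deviate together in every pair (correlations -0.086 to 0.24 in colon and -0.082 to 0.59 in liver), so they were not used as pairs. Their mean correlation was 0.073 in colon and 0.27 in liver, against -0.014 and -0.052 for arrays of different numbers. Results with slide as a block are given below. Replicates of a group correlated at 0.655 to 0.937, and median signals were 3.78 to 7.20 times background in Cy3 and 5.41 to 18.1 times in Cy5.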

Additional observations from a re-analysis of the deposited data

Results flagged for a closer look

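In 9 of 99 groups of 6 arrays, over 25 genes, the highest or lowest array lay far from the other 5 by Dixon's criterion, which chance alone meets in about 5% of groups. In liver, HF-Low-Suf replicate 1 was far below the rest of its group for Slco1b2 (1.03, next 1.81) and Slco1a5 (-1.07, next 1.02). HF-Low-Low replicate 2 was far above for Abcg5 (2.40, next 1.58) and HF-Low-Suf replicate 6 far below for Slco4a1 (-2.02, next -1.22), where all liver arrays were dim.

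In colon, HF-Low-Suf replicate 2 was far above for Abcb9 (0.81, next 0.55). HF-Low-Low replicate 4 was far below for Abcc8 (0.79, next 1.37) and far above for Slco2a1 (0.21, next -0.19). HF-Low-Suf replicate 1 was far below for Slco2a1 (-0.76, next -0.47), and HF-Low-Low replicate 1 far below for Slco4a1 (-0.74, next 0.13), on an array where that probe was dim.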

How the results depend on the processing

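Over the alternatives with the same limits, 11 to 13 members were called higher in liver and 5 to 9 higher in colon. Without a minimum fold it was 27 and 11. Leaving out each mouse gave 12 and 6 throughout, and the replicate block 12 and 6 for tissue and 0 for the difference of the diet effects (mouse as block) and 0 for both diets (slide as block), with Slc22a4 at -0.21 in colon and 0.24 in liver. Diet called 1 member in colon on the first scan day (Slco1a5), and in liver 1 without the 3 mice of the arrays with bright background, an alternative chosen after seeing the data (Slco1a1). In liver it was also 1 at an unadjusted P under 0.05 with no minimum fold (Slc22a13), and 0 to 1 when leaving out each array (Slc22a13 without HF-Low-Low replicate 3 or HF-Low-Suf replicate 5). Leaving out each array gave -0.35 to -0.12 for Slc22a4 in colon and 0.13 to 0.38 in liver, and the second scan day 0.036 in colon.

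Other signs that turned were, on the second probe, Abcc8 (0.062), Slc22a5 (-0.17), Slco1a5 (-0.073) and Abcb1b (-2.60) between tissues and Abcg8 (0.088) and Slc22a8 (-0.14) for diet in liver. Those probes of Abcc8 and Slc22a8 were dim on all 24 arrays and that of Slco1a5 on 23, so their signs carry no measured level. With the mean over probes they were Slc22a5 (-0.018) and Abcb1b (-0.65), and Abcc8 (-0.88) and Slco1a5 (0.88) fell under 2-fold. Slc22a5 also turned with median centring (-0.26) and on the second scan day (-0.16). In colon the diet differences of Abcb4 (-0.0301) and Abcb1b (-0.0322) turned without the 3 mice, and that of Abcb1b (-0.036) on the first scan day. With the processed signals of Feature Extraction, Slc22a21 passed 2-fold (-1.07), as did Abcc5 and Abcg4 toward colon and Slc22a8 toward liver, and Abcc5 did so too with median centring and on the second scan day. Without the 2 mice of the arrays with a bright reference the counts were 12, 6 and, for diet, 0. The causes were not tested. The other 599 tissue and 227 diet values of the genes followed here kept their direction and their side of the combined limits of P and fold. For tissue these genes include Slco1a1, Slco1a5 and Abcb1b, which were named after their values were seen. Genes with 1 probe, Slc22a4 among them, have no value under the probe alternatives. Signal over background limits the genes dim on all 12 arrays of a tissue to bounds, and the size of a difference is uncertain where only a few passed.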
